A study of Mus musculus with 14 samples.

Results

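The 44 genes described here encode the machinery that copies DNA: the origin recognition complex, the factors that license origins, the replicative helicase and its activators, the sliding clamp and its loader, the polymerases, the enzymes that join Okazaki fragments, the single-strand binding protein, and proteins that restore chromatin and DNA methylation behind the fork. They were chosen by name from a count table of 53465 genes, in which each has 1 row. All 44 were among the 10791 genes that passed a filter on low counts. RNA came from KL974, a mouse acute myeloid leukemia (AML) line, with and without knockdown of Ogdh. This gene encodes a subunit of the 2-oxoglutarate dehydrogenase complex of the tricarboxylic acid cycle. The labels give the genotype Trp53R172H with hairpins against Mll3 and Nf1 for every sample, controls included. Cells were kept in mouse IL3, IL6 and SCF. Each held a lentiviral hairpin whose expression, and that of linked blue fluorescent protein (BFP), is induced by doxycycline.

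The 14 libraries form 7 groups of 2. Control cells with shRen713 were untreated at day 0, where no label names a sort, or were treated with doxycycline and sorted at day 2 and at day 4 into BFP negative (uninduced) and BFP positive (induced) cells. Cells with shOgdh346 or shOgdh2081 were treated with doxycycline and sorted as BFP positive at day 4. All groups come from a single cell line, no label says that replicates are separate cultures, and p-values therefore measure the spread between these libraries, which may be technical. Library totals ran from 913482 to 10271698 counts. The shallowest were replicate 2 of shOgdh346 (1159021) and replicate 1 of shOgdh2081 (913482). The targeted gene itself was 247 to 267 CPM (counts scaled to a common library total) in control BFP positive libraries at day 4 and 51.5 to 60.8 CPM in the 4 Ogdh hairpin libraries.

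Of 10 genes listed as markers of myeloid progenitors or AML, Kit and Myb were high in every library, while Cebpa had no counts and Cd34, Mpo, Flt3 and Csf1r stayed under 1 CPM everywhere. The label of an AML line therefore rests here on the submitters' description and not on those 5 markers. Erythroid and mast cell genes were expressed in all libraries. With Ogdh knockdown 4 of 7 erythroid markers and 1 of 7 mast cell markers (Ms4a2) rose and 1 mast cell marker (Gata2) fell. The summed level of the 7 erythroid markers was 1884 to 1903 CPM in control BFP positive cells at day 4, 2198 to 2236 with shOgdh346 and 2144 to 2273 with shOgdh2081. In other controls it was 1978 to 2011 CPM in BFP negative cells of day 4, 2029 to 2076 at day 0 and up to 2141 in BFP negative cells of day 2. The 7 mast cell markers, of which Tpsb2 had no counts, summed to 540.4 to 541 CPM in control BFP positive cells at day 4. Their sum was 546 to 552 CPM with shOgdh346 and 530.1 to 534 with shOgdh2081. In other controls it was 501 to 532 CPM in BFP negative cells of day 4 and 450 to 466 at day 0. At day 2 it was 559 to 599 CPM in BFP negative and 474 to 475 in BFP positive control cells. For the 10 myeloid markers the sum was 1195 to 1199 CPM in control BFP positive cells at day 4. It was 1421 to 1446 CPM with shOgdh346 and 1437 to 1464 with shOgdh2081, and 2 of the markers (Myb and Csf2rb) rose. Of 3 tested stroma or fibroblast markers 2 fell (Col1a2 and Pdgfrb). The 5 listed summed to 41.0 to 44.7 CPM in these controls and to 27.6 to 30.3 and 26.3 to 32.0 with the hairpins. In other controls the stroma sum was 35.2 to 39.2 CPM in BFP negative cells of day 4 and 28.04 to 30.4 at day 0. At day 2 it was 23.5 to 24.3 CPM in BFP negative and 22.7 to 23.9 in BFP positive control cells, below all 4 Ogdh libraries. Relative to BFP positive controls of day 4, the erythroid and myeloid sums were thus higher, and the stroma sum lower, in the Ogdh libraries. Single genes weighed heavily in the first 2 sums. In CPM of tested genes, the erythroid marker Tfrc measured 1015 and 1004 in these controls and 1111 to 1321 in the 4 Ogdh libraries. Myb measured 694 and 684 CPM and 866 to 891 CPM. Of the other erythroid markers, Gata1 and Klf1 overlapped between the groups. Epor went the other way, at 165 and 163 CPM in these controls and 147 to 162 in the Ogdh libraries. The replication genes described next were lower in the same libraries, and the part of these markers in those results was not tested. Markers of T cells (3 of 5), B cells (4 of 5), neutrophils (5 of 7) and macrophages (3 of 6) had no counts in any library, and the highest summed level of any of these lists in a library was 9.33 CPM, for macrophages.

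Replication starts in steps that cells keep apart. In G1 phase the origin recognition complex, CDC6 and CDT1 load the MCM2-7 ring onto DNA in an inactive form. In S phase CDC45 and the GINS complex join the ring to make the active helicase. Polymerase alpha with primase then lays down primers, the RFC clamp loader places the PCNA ring, and polymerases delta and epsilon extend the strands. Many of these genes are transcribed in waves around the G1 to S transition, under E2F transcription factors. Proliferating blood progenitors and leukemia cells express them at high levels.

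The genes of this machinery were lower with Ogdh knockdown, and the MCM helicase, the clamp loader, polymerase delta and the chromatin factors accounted for most of the calls. Compared with control BFP positive cells at day 4, 19 of the 44 genes fell over both Ogdh hairpins (43.2%), none rose, and 25 did not pass (edgeR quasi-likelihood test, Benjamini-Hochberg adjusted p under 0.05 over all 10791 genes). Over all genes tested, 8.36% fell and 7.72% rose. The median log2 fold change of the 44 genes was -0.20, beside 0.00024 for all genes, and 40 of the 44 values were negative, beside 49.9% of all genes. Changes were small, from a 29.1% lower level of Pold2 to a 12.7% lower level of Pcna among called genes. In bulk RNA a smaller share of cells in S phase and less RNA of these genes per cell cannot be told apart. The count fell to 5 without control BFP positive replicate 1, to 12 without replicate 2 and to 9 with libraries thinned to equal depth. Pold2, Mcm2, Mcm3 and Mcm4 kept their calls under all 24 alternatives that were run.

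The share of each library that these genes took fell in steps across the groups. It was 1.09% and 1.09% of counts at day 0, 1.06% and 1.03% in BFP negative and 1.04% and 1.02% in BFP positive control cells at day 2. At day 4 it was 0.982% and 0.956% in BFP negative and 0.951% and 0.943% in BFP positive control cells. With knockdown it was 0.831% and 0.801% for shOgdh346 and 0.778% and 0.820% for shOgdh2081. The 4 Ogdh hairpin libraries lay below all 10 control libraries, and the 4 control libraries at day 4 lay below all 6 earlier ones. Of the 44 genes, 36 had their lowest group mean with an Ogdh hairpin, as did 36.4% of all tested genes. Of the 44, 22 were lower in each of the 4 Ogdh libraries than in any of the 10 control libraries, where 8.1% of all tested genes were. None was higher in all 4 than in any control library (6.89% of all genes). Against the 2 BFP positive control libraries of day 4 alone, 26 genes lay lower in all 4 Ogdh libraries (19% of all genes did) and 1, Orc5, lay higher (17.1%); against all 4 day 4 control libraries 25 lay lower (13.3%).

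**Figure D1:**
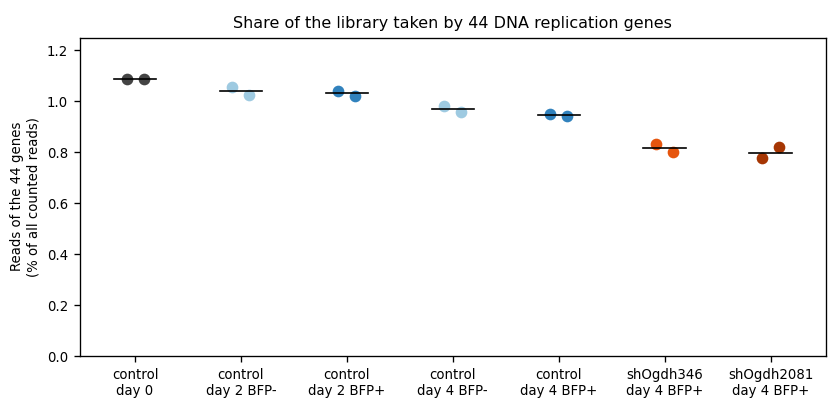
Reads of the 44 DNA replication genes as a percentage of all counted reads (vertical axis) in each library, by group; points are libraries and bars the means of 2. The 4 Ogdh hairpin libraries (0.778% to 0.831%) sit below every control library, and the day 0 libraries are the highest.

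The origin recognition complex, 6 subunits that mark replication origins, had no call with knockdown (edgeR). Orc6 (-0.23 ± 0.09, adjusted p = 0.0784) and Orc2 (-0.20 ± 0.08, adjusted p = 0.0561) missed the threshold, and Orc1, the largest subunit, was -0.24 ± 0.17, adjusted p = 0.359 at only 15.4 to 31.5 CPM. Orc3, Orc4 and Orc5 lay between -0.10 and 0.12. The summed level of the 6 genes was 690.3 to 733 CPM in control BFP positive cells at day 4, 666 to 689 with shOgdh346 and 679 to 684 with shOgdh2081. Opposite-strand exons of Nif3l1 cover 29.8% of Orc2 exon bases and the strand setting of the counting is not stated in the sources used here, so Orc2 counts are uncertain, as are those of Orc1, where Gm12743 covers 10.8%. Neither licensing factor passed: Cdc6, the ATPase that helps load MCM2-7, was -0.09 ± 0.08, adjusted p = 0.457, and Cdt1, its partner in loading, was -0.18 ± 0.08, adjusted p = 0.129.

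All but 1 of the 6 subunits of the MCM2-7 ring fell. Mcm4 (ENSMUSG00000022673, chromosome 16, 15623897 to 15637400, in GRCm38 coordinates as for all genes here) measured 563 and 567 CPM at day 0, 496 and 495 in BFP negative and 488 and 537 in BFP positive control cells at day 2. At day 4 Mcm4 measured 466 and 492 CPM in BFP negative and 478 and 492 in BFP positive control cells, 346.2 and 365 with shOgdh346 and 352 and 375 with shOgdh2081. Every Ogdh library was below every control library, and over both hairpins the level was 25.7% lower than in BFP positive controls of day 4 (log2 fold change -0.43 ± 0.07 SE, adjusted p = 2.8e-06, edgeR). Mcm3 (ENSMUSG00000041859, chromosome 1, 20802968 to 20820312) measured 665 and 655 CPM at day 0, 671 and 630.1 in BFP negative and 653 and 649 in BFP positive control cells at day 2. At day 4 Mcm3 measured 537 and 516 CPM in BFP negative and 492 and 500.3 in BFP positive control cells, 386 and 368 with shOgdh346 and 354 and 412 with shOgdh2081. For this gene the day 4 controls were already below days 0 and 2, and the Ogdh libraries lay lower again (log2 fold change -0.37 ± 0.07 SE, adjusted p = 5.43e-05, edgeR). Mcm2 (ENSMUSG00000002870, chromosome 6, 88883474 to 88898780) measured 678 and 666 CPM at day 0, 649.6 and 599 in BFP negative and 668 and 564 in BFP positive control cells at day 2. At day 4 Mcm2 measured 588 and 534 CPM in BFP negative and 539 and 564 in BFP positive control cells, 463 and 414 with shOgdh346 and 419 and 429.5 with shOgdh2081. Its 4 Ogdh libraries also stayed below all controls (log2 fold change -0.34 ± 0.07 SE, adjusted p = 0.000236, edgeR). Mcm6 (-0.27 ± 0.06) and Mcm7 (-0.24 ± 0.07) fell less, and Mcm5 did not pass (-0.17 ± 0.07, adjusted p = 0.105). The Mcm5 interval of -0.32 to -0.02 (95%) overlaps those of the called subunits, for example -0.38 to -0.11 for Mcm7. Mcm6 and Mcm7 lost their calls without control BFP positive replicate 1 (adjusted p = 0.0865 and 0.122), and Mcm7 also without replicate 2 (0.0896), without both shallow Ogdh libraries (0.135) and with libraries thinned (0.326). Exons of Cops6, Ap4m1, Mir25 and Mir93 cover 12.6% of Mcm7 exon bases, so its counts are uncertain.

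Per kilobase of the deposited gene length, the ring subunits ranged from 79.3 ± 2.50 CPM per kb for Mcm2 to 151.2 ± 2.38 for Mcm6 in control BFP positive cells at day 4 (mean ± SD, n = 2). Mcm7 was at 98.4 ± 1.29, and Mcm3, Mcm5 and Mcm4 at 132.3 ± 1.55, 133.5 ± 2.95 and 135.2 ± 2.90, which differed by no more than about their spread. Pcna (225 ± 12.1) was the only gene of the 44 above Mcm6 on this scale. The origin recognition genes ran from 6.75 ± 0.259 (Orc1) to 58.4 ± 1.78 (Orc2), so all 6 ring subunits lay above all 6 of these. With shOgdh346 the ring subunits were at 63.0 (Mcm2) to 125 (Mcm6) and with shOgdh2081 at 61.0 (Mcm2) to 125.8 (Mcm6) CPM per kb. These levels rest on a length whose origin is not stated in the sources used here.

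**Figure D2:**
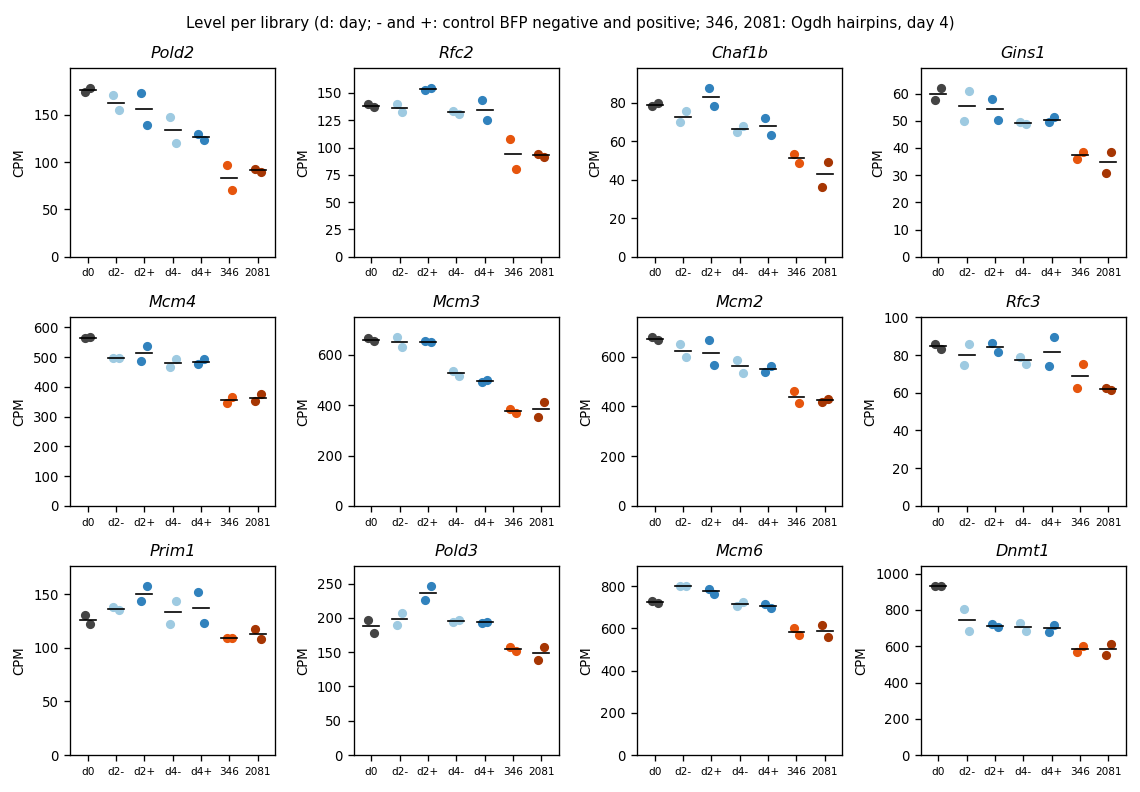
CPM (vertical axes, from 0) of the 10 called genes with the largest change over both Ogdh hairpins, and of Mcm6 and Dnmt1, in all 14 libraries; points are libraries and bars the means of 2. In 11 of the 12 panels the 4 Ogdh libraries lie below the 4 control libraries of day 4; Rfc3 is the exception, with 1 shOgdh346 library (75.3 CPM) above 1 control BFP positive library (73.9 CPM).

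Of the 6 genes that turn the loaded ring into an active helicase, only Gins1 was called. GINS1 is 1 of 4 subunits of the GINS complex. Gins1 (ENSMUSG00000027454, chromosome 2, 150905400 to 150931280) measured 57.5 and 62.1 CPM at day 0, 50.1 and 60.9 in BFP negative and 58.2 and 50.4 in BFP positive control cells at day 2. At day 4 Gins1 measured 49.6 and 48.9 CPM in BFP negative and 49.5 and 51.3 in BFP positive control cells, 36.0 and 38.5 with shOgdh346 and 30.7 and 38.6 with shOgdh2081. The Ogdh libraries were the 4 lowest, at 26.8% below BFP positive controls (log2 fold change -0.45 ± 0.13 SE, adjusted p = 0.0085, edgeR). Its call was lost without either control BFP positive library (adjusted p = 0.113 and 0.0685), without shOgdh346 replicate 1 (0.0772), with libraries thinned (0.152) and by DESeq2 (0.0778). The other GINS genes were -0.18 ± 0.13, adjusted p = 0.375 (Gins2), -0.08 ± 0.16, adjusted p = 0.777 (Gins3) and -0.01 ± 0.12, adjusted p = 0.971 (Gins4). Cdc45, the third part of the active helicase, was 0.03 ± 0.08, adjusted p = 0.861 with a 95% interval of -0.14 to 0.20, and Mcm10, which helps fire the helicase, was -0.14 ± 0.08, adjusted p = 0.237. Opposite-strand exons of Gse1 cover 67.3% of Gins2 exon bases, so its counts are uncertain.

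The clamp loader and its clamp gave 5 calls of 6. Rfc2 (ENSMUSG00000023104, chromosome 5, 134581366 to 134601805), a small subunit of the RFC clamp loader, measured 139.8 and 137.1 CPM at day 0, 139.6 and 132.5 in BFP negative and 152.9 and 154.7 in BFP positive control cells at day 2. At day 4 Rfc2 measured 133.9 and 130.7 CPM in BFP negative and 143.8 and 125 in BFP positive control cells, 108 and 80.4 with shOgdh346 and 94.3 and 91.4 with shOgdh2081. Control libraries at every time were higher than all 4 Ogdh libraries (log2 fold change -0.49 ± 0.09 SE, adjusted p = 5.38e-05, edgeR), and only leaving out control BFP positive replicate 1 ended the call (-0.37, adjusted p = 0.0771). Rfc3 (ENSMUSG00000033970, chromosome 5, 151642756 to 151651242) measured 85.9 and 83.2 CPM at day 0, 74.5 and 86.0 in BFP negative and 86.4 and 81.8 in BFP positive control cells at day 2. At day 4 Rfc3 measured 79.2 and 75.3 CPM in BFP negative and 73.9 and 89.5 in BFP positive control cells, 62.5 and 75.3 with shOgdh346 and 62.5 and 61.6 with shOgdh2081. Here replicate 2 of shOgdh346 was above replicate 1 of the BFP positive controls, so the groups overlapped (log2 fold change -0.34 ± 0.11 SE, adjusted p = 0.0195, edgeR). The Rfc3 call did not hold without replicate 2 of the BFP positive controls (-0.22, adjusted p = 0.327), without shOgdh346 replicate 1 (0.222) or shOgdh2081 replicate 2 (0.101), with libraries thinned (0.129) and by DESeq2 (0.137). Rfc4 (-0.32 ± 0.10, adjusted p = 0.0156) and the large subunit Rfc1 (-0.23 ± 0.08, adjusted p = 0.0391) also fell, and Rfc5 did not pass (-0.10 ± 0.09, adjusted p = 0.464). Pcna, the sliding clamp that holds polymerases on DNA, fell by 12.7%, from 561 and 520.4 CPM in control BFP positive cells to 504 and 484 and 446 and 454 CPM with the hairpins (log2 fold change -0.20 ± 0.07 SE, adjusted p = 0.0364, edgeR). Calls for Pcna and Rfc1 were the least steady, kept under 13 and 14 of the 24 alternatives, and Rfc4 lost its call without BFP positive control replicate 1 (-0.26, adjusted p = 0.313), without the shallow libraries (0.0787) and by DESeq2 (0.0917). Other exons on the opposite strand cover 15.1% of Rfc2 exon bases (Lat2), 12.7% of Rfc4 (Eif4a2) and 10.7% of Rfc5 (Wsb2), and the annotation lists 2 Pcna pseudogenes, so these counts are uncertain.

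Among the polymerases, Pold2 and Pold3, accessory subunits of polymerase delta, fell, as did Prim1, 1 of the 2 primase genes. The catalytic subunits of polymerases alpha, delta and epsilon did not pass. Pold2 (ENSMUSG00000020471, chromosome 11, 5872180 to 5878292), the second subunit of polymerase delta, had the largest fold change of the 19 called genes and measured 174 and 178 CPM at day 0, 170.4 and 155.1 in BFP negative and 173 and 139.7 in BFP positive control cells at day 2. At day 4 Pold2 measured 148.03 and 120.4 CPM in BFP negative and a mean of 126.8 (from 415 and 265 counts) in BFP positive control cells, 96.6 and 70.2 with shOgdh346 and 93.2 and 89.9 with shOgdh2081. Its highest Ogdh library, 96.6 CPM, was below its lowest control library, 120.4 CPM (log2 fold change -0.50 ± 0.10 SE, adjusted p = 0.000196, edgeR). Pold3 (ENSMUSG00000030726, chromosome 7, 100082111 to 100121565), the third subunit, measured 197 and 178 CPM at day 0, 189.7 and 208 in BFP negative and 226 and 246 in BFP positive control cells at day 2. At day 4 Pold3 measured 194 and 197 CPM in BFP negative and 193 and 194 in BFP positive control cells, 158 and 151.5 with shOgdh346 and 139.3 and 158 with shOgdh2081. It was highest in BFP positive controls at day 2 and lowest with the Ogdh hairpins (log2 fold change -0.32 ± 0.08 SE, adjusted p = 0.00234, edgeR). Its call did not hold without BFP positive control replicate 1 (-0.32, adjusted p = 0.0774) or with libraries thinned (0.117). Pold1, the catalytic subunit, was -0.13 ± 0.09, adjusted p = 0.338. For polymerase epsilon, Pole was -0.20 ± 0.07, adjusted p = 0.055 and Pole2, at 21.9 to 39.4 CPM, was -0.32 ± 0.15, adjusted p = 0.129.

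Prim1 (ENSMUSG00000025395, chromosome 10, 128015168 to 128030037), the catalytic subunit of primase, measured 130.2 and 122 CPM at day 0, 138.3 and 135.02 in BFP negative and 143.9 and 157.4 in BFP positive control cells at day 2. At day 4 Prim1 measured 123 and 143.6 CPM in BFP negative and 151.9 and 123 in BFP positive control cells, 109 and 109.5 with shOgdh346 and 117 and 109 with shOgdh2081. All 4 Ogdh libraries were below all 10 controls (log2 fold change -0.34 ± 0.09 SE, adjusted p = 0.00582, edgeR), although the 2 control BFP positive libraries at day 4 stood far apart. Without replicate 1 of them the change was -0.16 (adjusted p = 0.544), and the call was also lost without shOgdh2081 replicate 2 (0.0709), with libraries thinned (0.161) and by DESeq2 (0.0654). The larger primase subunit Prim2 (-0.15 ± 0.10, adjusted p = 0.316), the polymerase alpha catalytic subunit Pola1 (-0.16 ± 0.09, adjusted p = 0.204) and its partner Pola2 (0.06 ± 0.08, adjusted p = 0.683) did not pass.

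Lig1 (ENSMUSG00000056394, chromosome 7, 13277283 to 13311433), the ligase that seals Okazaki fragments, measured 397 and 405 CPM at day 0, 367 and 360.3 in BFP negative and 406 and 385 in BFP positive control cells at day 2. At day 4 Lig1 measured 308 and 303 CPM in BFP negative and 297 and 301 in BFP positive control cells, 242 and 231 with shOgdh346 and 230.3 and 251 with shOgdh2081. It stepped down between day 2 and day 4 in controls and was lower again with both hairpins (log2 fold change -0.31 ± 0.07 SE, adjusted p = 0.00139, edgeR). Only leaving out control BFP positive replicate 1 ended this call (-0.31, adjusted p = 0.0514). Fen1, the flap nuclease that acts just before the ligase, was counted at 3.43 to 7.50 CPM (5 to 59 reads a library) and 1.67 ± 0.355 CPM per kb in control BFP positive cells at day 4, the lowest of the 44 genes. Exons of Tmem258 and Gm10143 on the opposite strand cover 84.2% of its exon bases. The part of this overlap in its low count was not tested, and its change of 0.27 ± 0.38 has a 95% interval of -0.49 to 1.02. Of the 3 subunits of RPA, which coats single-stranded DNA, Rpa2 fell (-0.27 ± 0.08, adjusted p = 0.00903), a call lost without either control BFP positive library (adjusted p = 0.0928 and 0.101), without the shallow libraries (0.0649) and with libraries thinned (0.283). Rpa1 (-0.08 ± 0.07, adjusted p = 0.477) and Rpa3 (-0.19 ± 0.11, adjusted p = 0.272) did not pass.

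Of the 4 genes that restore chromatin behind the fork, 3 fell. Chaf1b (ENSMUSG00000022945, chromosome 16, 93883901 to 93906115), a subunit of the CAF-1 complex that deposits new histones, measured 78.4 and 79.7 CPM at day 0, 69.8 and 75.8 in BFP negative and 87.8 and 78.4 in BFP positive control cells at day 2. At day 4 Chaf1b measured 64.8 and 68.0 CPM in BFP negative and 72.4 and 63.4 in BFP positive control cells, 53.5 and 48.8 with shOgdh346 and 36.2 and 49.3 with shOgdh2081. Its Ogdh libraries were below all controls (log2 fold change -0.47 ± 0.11 SE, adjusted p = 0.00178, edgeR), and the call did not hold without BFP positive control replicate 1 (-0.36, adjusted p = 0.205) or with libraries thinned (0.239). Dnmt1 (ENSMUSG00000004099, chromosome 9, 20907209 to 20959888), the maintenance DNA methyltransferase, measured 929 and 930.4 CPM at day 0, 803 and 683 in BFP negative and 725 and 703 in BFP positive control cells at day 2. At day 4 Dnmt1 measured 729.6 and 683 CPM in BFP negative and 681 and 718 in BFP positive control cells, 569 and 599 with shOgdh346 and 552 and 614 with shOgdh2081. It was highest at day 0, lower at days 2 and 4 and lowest with the hairpins (log2 fold change -0.26 ± 0.07 SE, adjusted p = 0.00489, edgeR). Uhrf1, which brings DNMT1 to newly copied DNA, fell as well (-0.29 ± 0.07, adjusted p = 0.00228). Dnmt1 lost its call without either control BFP positive library (adjusted p = 0.0541 and 0.103), and Uhrf1 without replicate 1 (0.107) and with libraries thinned (0.0637). Chaf1a, the large CAF-1 subunit, was -0.18 ± 0.09, adjusted p = 0.141, and opposite-strand exons of Ubxn6 cover 52.5% of its annotated exon bases, so its counts are uncertain.

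Each hairpin gave lower levels on its own. With shOgdh346, 14 of the 44 genes fell and none rose (5.6% of all genes fell and 5.58% rose), and the median was -0.19. With shOgdh2081, 19 fell and none rose (5.53% fell and 6.02% rose), and the median was -0.24. Both comparisons share the 2 control BFP positive libraries. The largest falls among called genes were -0.50 ± 0.11 for Pold2 with shOgdh346 and -0.56 ± 0.13 for Chaf1b and -0.56 ± 0.11 for Rfc2 with shOgdh2081. When the hairpins were compared directly, edgeR called none of the 44 genes (0.0834% of all genes called), 1 had an unadjusted p under 0.05 (7.28% of all genes did) and DESeq2 called none. That gene was Orc4, an origin recognition subunit (0.32 ± 0.14, adjusted p = 0.59, shOgdh2081 minus shOgdh346), named here after its values were seen. For Mcm4 the 95% interval of the difference was -0.11 to 0.22 and for Pold2 it was -0.23 to 0.26. Counts for single hairpins moved most with the libraries: shOgdh346 gave 2 and 8 without control BFP positive replicates 1 and 2 and 5 and 7 without its own replicates 1 and 2, and shOgdh2081 gave 4 and 9, and 6 and 6.

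**Figure D3:**
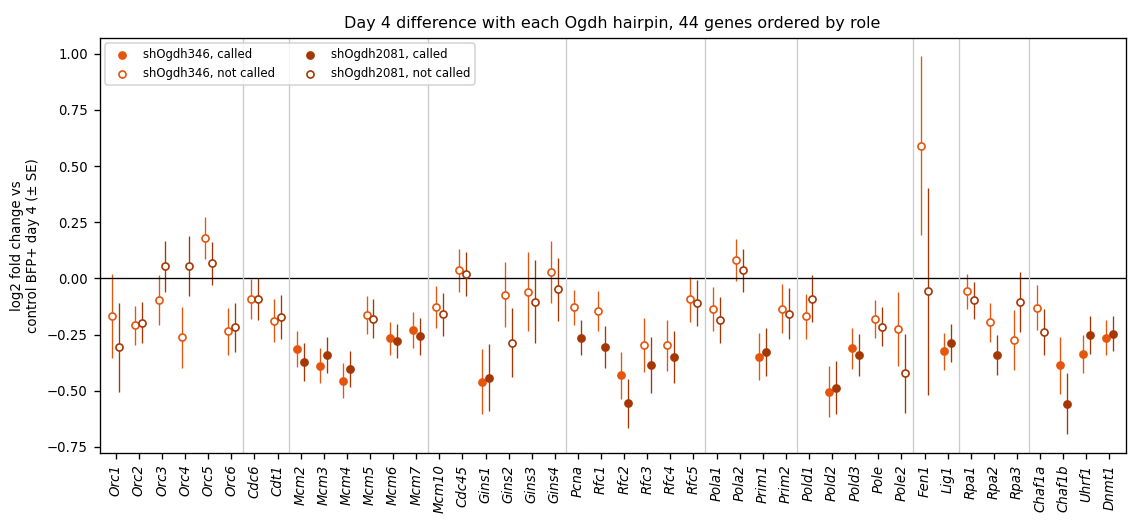
Log2 fold change (vertical axis, ± SE) of each of the 44 genes with shOgdh346 and shOgdh2081 against control BFP positive cells at day 4, ordered by role along the horizontal axis; filled points are called by edgeR and open points are not. All 6 ring subunits lie below 0 with both hairpins, and Fen1, with few reads, has the widest error.

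Against the other day 4 control, BFP negative cells, 27 of the 44 genes fell with knockdown and none rose (10.3% of all genes fell and 10.5% rose), with a median of -0.25. This comparison uses the same 4 Ogdh libraries and 2 control libraries of greater depth, 3663014 and 10271698 counts. All 6 ring subunits passed, among them Mcm5 (-0.24 ± 0.07, adjusted p = 0.00875), as did all 4 chromatin genes. Pola1 (-0.34 ± 0.08, adjusted p = 0.000552), Cdt1 (-0.23 ± 0.07, adjusted p = 0.0232), Orc6 (-0.22 ± 0.08, adjusted p = 0.0484), Mcm10 (-0.19 ± 0.07, adjusted p = 0.0496), Pole (-0.20 ± 0.07, adjusted p = 0.0312), Gins2 (-0.29 ± 0.11, adjusted p = 0.0472) and Chaf1a (-0.26 ± 0.08, adjusted p = 0.0104) passed as well. BFP negative cells differ from the Ogdh cells also in hairpin induction, which this comparison alone does not separate from knockdown. BFP positive controls, in which a hairpin was also induced, are the comparison given above. All 19 genes called lower there were also called lower against BFP negative cells. The count was 15 without control BFP negative replicate 1, 15 by DESeq2 and 13 with libraries thinned.

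Inducing the control hairpin gave no call among the 44 genes. Between control BFP positive and BFP negative cells edgeR called none at day 2 (6.23% of all genes called) and none at day 4 (0.0741%), with 6 and 1 at an unadjusted p under 0.05 (18.9% and 4.61% of all genes), and DESeq2 called none on either day. Medians were 0.0075 at day 2 and -0.015 at day 4. At day 2 the smallest p belonged to Orc3, a core origin recognition subunit (0.31 ± 0.11, adjusted p = 0.0769), and Orc5, another (0.27 ± 0.10, adjusted p = 0.0856), both named after their values were seen. Without control BFP negative replicate 2 of day 2 these 2 were called higher (Orc3 0.46, adjusted p = 0.0303, and Orc5 0.44, adjusted p = 0.0118). The day 4 effect minus the day 2 effect was called for none of the 44 genes (edgeR, 0.658% of all genes called; 3 at an unadjusted p under 0.05, where 9.8% of all genes were; none by DESeq2).

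Control cells themselves lost transcripts of these genes between day 0 and day 4. In BFP negative cells 11 of the 44 fell and none rose by day 4 (4.19% of all genes fell and 3.84% rose), with a median of -0.11. In BFP positive cells 11 fell and 1 rose (3.65% and 3.46% of all genes), with a median of -0.13. Both comparisons share the day 0 libraries, and each combines time, doxycycline and sorting, which cannot be told apart. Pold2 (-0.42 ± 0.10, adjusted p = 0.00253), Dnmt1 (-0.40 ± 0.07, adjusted p = 0.000128), Lig1 (-0.39 ± 0.07, adjusted p = 0.000193) and Cdt1 (-0.38 ± 0.08, adjusted p = 0.00166) changed most in BFP negative cells. Cdt1 (ENSMUSG00000006585, chromosome 8, 122568015 to 122573554) measured 249 and 254 CPM at day 0, 229 and 202 in BFP negative and 186 and 194 in BFP positive control cells at day 2. At day 4 Cdt1 measured 210.4 and 181 CPM in BFP negative and 186 and 189 in BFP positive control cells, 171 and 148.9 with shOgdh346 and 153.5 and 172 with shOgdh2081. Its 2 day 0 libraries were above all later ones. Of the MCM2-7 genes all but Mcm6 fell in BFP negative cells, and Mcm6 was -0.02 ± 0.07, adjusted p = 0.902. All 4 day 4 control libraries lay below both day 0 libraries for 21 of the 44 genes (17.6% of all genes) and above them for Orc2 and Rfc1 (17.8%). Counts in BFP negative cells were 4 and 5 without day 0 replicates 1 and 2, 2 without day 4 BFP negative replicate 2 and 3 with libraries thinned. In BFP positive cells they were 7 without day 0 replicate 2, 6 without day 4 BFP positive replicate 1 and 7 with libraries thinned.

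The fall in BFP negative controls and the fall with knockdown against BFP positive controls use separate libraries, and 8 genes were lower in both: Mcm2, Mcm3, Mcm4, Mcm7, Pold2, Lig1, Uhrf1 and Dnmt1. They are 72.7% of the 11 genes lower by day 4 and 42.1% of the 19 lower with knockdown. Over all genes tested, 130 were lower in both, which is 28.8% of the 452 lower by day 4 and 14.4% of the 902 lower with knockdown. Calls were more frequent among the 44 genes (11 by day 4 and 19 with knockdown) than over all genes. That by itself raises the overlap, and the overlap was not tested. Cdt1, Mcm5 and Pole were lower by day 4 and missed the threshold with knockdown (adjusted p = 0.129, 0.105 and 0.055). Rfc2 was among the genes called with knockdown and not by day 4 (-0.07 ± 0.09, adjusted p = 0.722), as were Prim1 (0.09 ± 0.09, adjusted p = 0.609) and Pold3 (0.06 ± 0.08, adjusted p = 0.719). Whether such effects differ between the 2 comparisons was not tested.

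**Figure D4:**
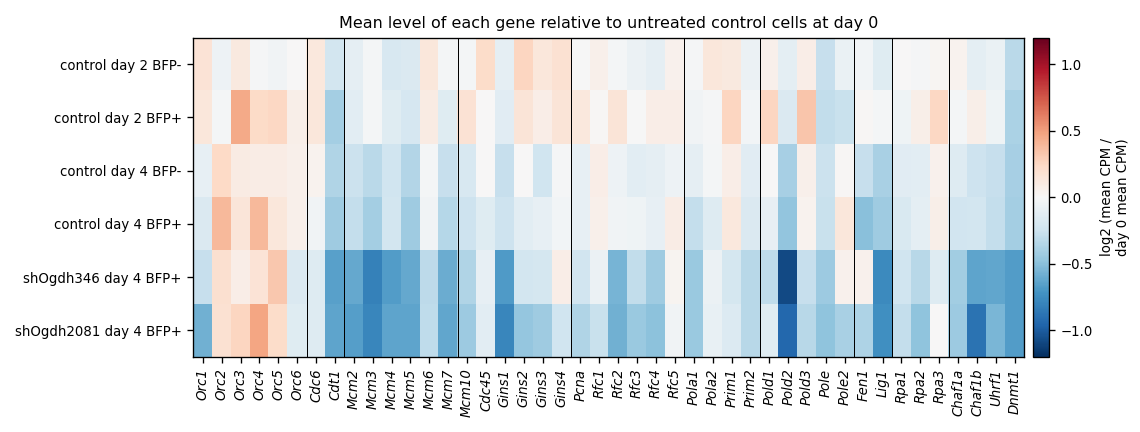
Mean CPM of each of the 44 genes in 6 groups (rows) relative to untreated control cells at day 0, as log2 (color scale), ordered by role. The bottom rows, with the Ogdh hairpins, are lowest for Pold2, and Mcm3, Lig1 and Gins1 are also low, while Orc2 to Orc5 lie above day 0.

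At day 2 few of these genes had moved. In BFP negative cells Dnmt1 (-0.33 ± 0.07, adjusted p = 0.00194) and Pole (-0.29 ± 0.08, adjusted p = 0.0138) fell and none rose (4.98% of all genes fell and 5.33% rose). In BFP positive cells Cdt1 (-0.41 ± 0.09, adjusted p = 0.000795), Dnmt1 (-0.38 ± 0.08, adjusted p = 0.000188) and Pole (-0.30 ± 0.08, adjusted p = 0.00836) fell while Pold3 (0.32 ± 0.09, adjusted p = 0.00796) and Orc3 (0.45 ± 0.11, adjusted p = 0.00313) rose (8.77% of all genes fell and 9.1% rose). These shares of the 44 genes are near or under those of all genes. All 4 day 2 libraries lay below both day 0 libraries for 7 genes (15.7% of all genes) and above for 4 (15.3%). The BFP negative count was 1 without either day 0 library, 0 without day 2 BFP negative replicate 2, and 1 by DESeq2 and with libraries thinned, and the BFP positive count was 3 without day 0 replicate 2 and 2 with libraries thinned.

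From day 2 to day 4 in BFP positive control cells 8 of the 44 genes fell and 1 rose (6.04% of all genes fell and 5.88% rose), with a median of -0.18. Mcm10 (ENSMUSG00000026669, chromosome 2, 4989714 to 5012791), which binds the ring as it fires, measured 177 and 189 CPM at day 0, 179 and 180.3 in BFP negative and 205 and 207 in BFP positive control cells at day 2. At day 4 Mcm10 measured 160.0 and 159.7 CPM in BFP negative and 162 and 144.6 in BFP positive control cells, 139.4 and 145.5 with shOgdh346 and 128.3 and 141.8 with shOgdh2081. It was highest in BFP positive cells at day 2 (log2 fold change -0.42 ± 0.09 SE, adjusted p = 0.000945, edgeR). Lig1 (-0.41 ± 0.08, adjusted p = 0.000183), Mcm3 (-0.39 ± 0.08, adjusted p = 0.000165), Pold1 (-0.34 ± 0.10, adjusted p = 0.0159), Pold2 (-0.33 ± 0.11, adjusted p = 0.0379), Pold3, Uhrf1 and Pcna also fell. Orc2 (ENSMUSG00000026037, chromosome 1, 58462771 to 58505109) went the other way and measured 185 and 159 CPM at day 0, 161 and 168 in BFP negative and 170.1 and 168 in BFP positive control cells at day 2. At day 4 Orc2 measured 195 and 211 CPM in BFP negative and 230.2 and 221 in BFP positive control cells, 193 and 201 with shOgdh346 and 189.7 and 200.2 with shOgdh2081. Its 2 BFP positive libraries at day 4 were the highest of all 14 (log2 fold change 0.42 ± 0.09 SE, adjusted p = 0.000834, edgeR). The count was 5 without day 2 BFP positive replicate 1, 4 without either day 4 library, 4 by DESeq2 and 3 with libraries thinned.

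Many of these genes share E2F letters at their promoters. The genes were chosen by name and not by these letters. Many are known to be transcribed under E2F factors, as said above, so the match is a description and no independent finding. RefSeq windows of 300 bases (250 before and 50 after an annotated start, GRCm38.p6) matched 37 of the 44 genes in 48 windows; Mcm4, Gins1, Gins2, Gins4, Rfc2, Prim2 and Pole had no entry. The words TTTCCCGC, TTTCGCGC, TTTGCCGC and TTTGGCGC, searched on both strands, stood in at least 1 window of 17 of these 37 genes (45.9%), beside 2.6% of all 27025 genes with a window and 5.08% of the 8306 tested genes with one. CCAAT, on either strand, stood in 24 (64.9%), beside 43.7% of tested genes, and GGGCGG in 29 (78.4%), beside 70.9%. TTTGAA or TTCGAA stood in 8 (21.6%), beside 16.4%. Of the 24 E2F words found, 1 overlapped a CCAAT, 0 a GGGCGG and 0 a TTTGAA or TTCGAA. Of the 16 windowed genes that fell with knockdown 8 held an E2F word, and of the 21 that were not called 9 did. A match describes letters and not a bound site. Bases just after the start were found in a GENCODE M21 transcript of the gene for 41 of the 48 windows, and not for those of Mcm5 and Mcm6. The RefSeq starts can lie inside the gene coordinates given here, as for windows of Dnmt1, Uhrf1, Lig1 and Mcm7. They can also lie before them, as for Mcm5 and Mcm6.

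Stretches of 30 bases around the first E2F word are shown for some of the genes named above, with E2F words in capitals and the gene's strand read 5′ to 3′. Those of Cdc6, Orc3, Gins3, Pola1 and Pole2 are not shown. In Lig1, Mcm3 and Pold3 the word shown lies after the start. Rfc3 has 1 word before and 1 after it, and in the other stretches the words lie before it.
Orc1 promoter, chr4:108579416-108579445, plus strand, bases -38 to -9 from the start: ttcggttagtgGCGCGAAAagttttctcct
Mcm3 promoter, chr1:20820275-20820304, minus strand, bases 9 to 38 from the start: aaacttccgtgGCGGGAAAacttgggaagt
Mcm5 promoter, chr8:75109345-75109374, plus strand, bases -164 to -135 from the start: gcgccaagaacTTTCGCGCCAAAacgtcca
Mcm7 promoter, chr5:138172030-138172059, minus strand, bases -176 to -147 from the start: aatttcgaaccGCGGGAAAcagggtgtcca
Rfc3 promoter, chr5:151651200-151651229, minus strand, bases -21 to 9 from the start: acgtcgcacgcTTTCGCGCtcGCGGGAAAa
Pold3 promoter, chr7:100121467-100121496, minus strand, bases 7 to 36 from the start: gagcgaagctgTTTCCCGCcggcgggagct
Lig1 promoter, chr7:13278841-13278870, plus strand, bases 16 to 45 from the start: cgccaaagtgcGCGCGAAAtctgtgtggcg
Uhrf1 promoter, chr17:56304117-56304146, plus strand, bases -196 to -167 from the start: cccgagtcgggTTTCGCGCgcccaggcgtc
Dnmt1 promoter, chr9:20952824-20952853, minus strand, bases -230 to -201 from the start: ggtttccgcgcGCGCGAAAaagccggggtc
In Mcm6 the 140 bases before the start hold 3 such words, 2 of which overlap on opposite strands, as a pair in Mcm5 does.
Mcm6 promoter, chr1:128359706-128359845, minus strand, bases -140 to -1 from the start: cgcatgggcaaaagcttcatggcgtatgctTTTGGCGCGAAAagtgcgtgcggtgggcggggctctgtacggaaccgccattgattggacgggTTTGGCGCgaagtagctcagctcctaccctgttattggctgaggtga

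**Figure D5:**
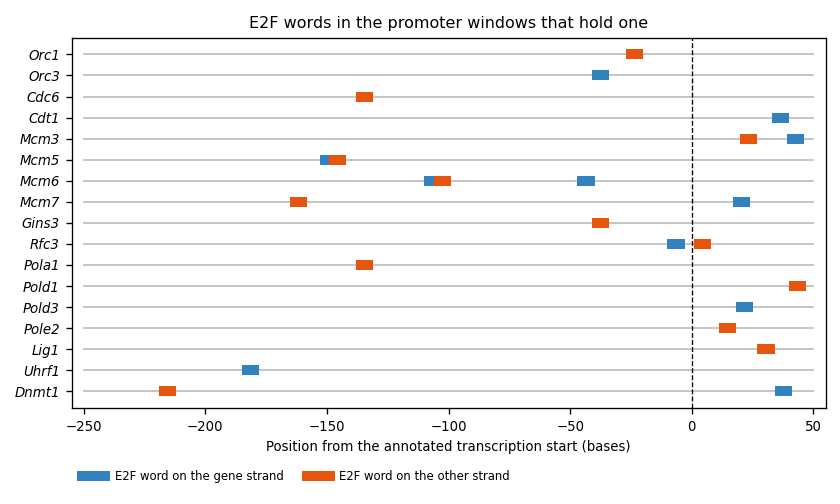
Positions of E2F words in the 300-base promoter windows of the 17 genes that hold one (horizontal axis, bases from the annotated start, dashed line; rows are genes ordered by role). Words lie between 219 bases before the start (Dnmt1) and 47 bases after it (Pold1), and Mcm3, Mcm5, Mcm6, Mcm7, Rfc3 and Dnmt1 hold more than 1.

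Other genes of the same processes were set beside the 44. Of 42 partners of the replication machinery (checkpoint, origin firing, loader variants, nucleases and histone chaperones), 11 fell with knockdown against BFP positive controls, none rose and 31 did not pass, with a median of -0.13. These 11 are 26.2% of the list, beside the 8.36% of all genes that fell. The largest falls were Tipin (-0.45 ± 0.09, adjusted p = 0.000126), a subunit of the fork protection complex, Dna2 (-0.42 ± 0.07, adjusted p = 7.27e-06), a nuclease that trims flaps, Dscc1 (-0.40 ± 0.14, adjusted p = 0.033), a subunit of an alternative clamp loader, and Rnaseh2b (-0.39 ± 0.10, adjusted p = 0.00572), a subunit of RNase H2. Of 20 tested genes that make deoxynucleotides and pyrimidines, 11 fell (55%, beside 8.36% of all genes), none rose and 9 did not pass, with a median of -0.25. They included Dctd (-0.80 ± 0.14, adjusted p = 1.22e-05) and Dut (-0.54 ± 0.07, adjusted p = 5.5e-08), which feed thymidylate synthesis, Dctpp1 (-0.63 ± 0.12, adjusted p = 8.22e-05), a pyrophosphatase that cleans the nucleotide pool, and Tk1 (-0.54 ± 0.08, adjusted p = 8.96e-07), thymidine kinase. Of 28 mitosis genes the reverse held: 11 rose (39.3%, beside 7.72% of all genes), none fell and 17 did not pass, with a median of 0.18. Among them were Aurka (0.48 ± 0.09, adjusted p = 5.29e-05), a mitotic kinase, Cenpf (0.45 ± 0.08, adjusted p = 1.56e-05), a kinetochore protein, Anln (0.45 ± 0.08, adjusted p = 1.59e-05), a cleavage furrow protein, and Nusap1 (0.40 ± 0.08, adjusted p = 7.91e-05), a spindle protein. The summed level of the 28 mitosis genes was 7040.2 to 7259 CPM in control BFP positive cells at day 4 and 8069 to 8348 and 8071 to 8073 CPM with the hairpins, while that of the 44 replication genes went from 9433 to 9512 to 8011 to 8313 and 7777 to 8197 CPM. These are counts and sums; no test of the lists against each other was made.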

How the data were processed

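Per the labels' protocols, polyA RNA was sequenced as single-end reads of 76 bases. The authors deposited whole-number counts per gene, not normalized. The labels' protocols name HTSeq, RPKM and hg19, whereas the submitters' processing notes name mm10 and GRCm38 as builds and, as tools, featureCounts 1.6.3, STAR 2.6.1a, Trimmomatic 0.36 and FastQC 0.11.5. Coordinates are those of the table; 96.4% of its genes shared with GENCODE M21 (GRCm38) have the same ones there. The authors also deposited a transcript length (another unit, in bases), used for levels per kilobase and a length offset. Strand handling is not stated in the sources used here.

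Counts were filtered with filterByExpr, normalized by TMM (factors 0.968 to 1.013) and tested with edgeR 4.0.16 (R 4.3.3, quasi-likelihood, two-sided) in 1 model of all 14 libraries with group as its term. A gene was called at an adjusted p under 0.05. CPM are of tested genes with TMM scaling; summed list levels and marker levels use whole library totals. Errors of fold changes are standard errors. An exact test of 2 against 2 libraries cannot pass and was not used. Intervals cover these libraries only, and no source used here names molecular identifiers. DESeq2 1.42.0, other filters, blocks, thinning and left-out libraries were alternatives. The scripts were tested on simulated data. Replicate pairs differed by more than sampling noise (chi-square per degree of freedom 1.16 to 2.71). Members, gene lists and motifs were chosen with earlier results of these data known. Named genes are the 10 called members with the largest change with knockdown, the 4 with the largest change in each of 4 control comparisons, and the 4 largest in each direction of every other list. Genes named outside this rule are said to be so or are given by role.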

Additional observations from a re-analysis of the deposited data

How the results depend on the processing

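Alternatives changed the number of the 44 genes called and turned no called direction among the 19 genes lower over both hairpins, of which 4 kept their calls under all 24 alternatives and 15 lost them under at least 1. Leaving out 1 library at a time gave 5 to 22 called genes for both hairpins against BFP positive controls (19), 2 to 14 for shOgdh346 (14), 4 to 19 for shOgdh2081 (19) and 15 to 28 against BFP negative controls (27). It gave 0 to 2 for induction at day 2 (0), 0 to 3 and 3 to 7 for BFP negative and positive cells at day 2 against day 0 (2 and 5), 2 to 12 and 6 to 13 for day 4 against day 0 (11 and 12) and 4 to 11 for day 4 against day 2 (9). A group left with 1 library is assumed to vary like the others. With libraries thinned to 913482 counts, in the same order, the counts were 9, 7, 6 and 13, then 0, 1 and 2, 3 and 7, and 3. By DESeq2 they were 13, 8, 11 and 15, then 0, 1 and 5, 10 and 10, and 4, and DESeq2 called 700 of all genes for both hairpins where edgeR called 1735 and the thinned libraries gave 689. Without the shallow library of each hairpin shOgdh346 gave 4, shOgdh2081 gave 6 and both together 14. Replicate numbers did not pair the samples: over 21 pairs of groups, deviations of same-numbered libraries correlated between -0.0818 and 0.148. Library names also carry a running number, and for shOgdh346 its order is the reverse of the replicate numbers. These correlations may therefore mispair that hairpin. The shallow library of each Ogdh hairpin is the one with the lower running number. With the replicate block 20 genes were called for both hairpins and 1850 of all genes, and every one of the 19 kept its call. All 19 also kept their calls with a block by library number. Other size factors, filters and the length offset gave 18 or 19 genes for both hairpins. Fen1, counted at few reads in every library, had the fold change with the widest error of the 44.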

Other observations

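Genes that govern entry into S phase were set beside the replication genes. Of 30 tested regulators, 7 fell, 2 rose and 21 did not pass with knockdown against control BFP positive cells at day 4 (edgeR), with a median of -0.091. Over all genes tested 8.36% fell and 7.72% rose, so the share of regulators that rose, 6.67%, was under that of all genes. The falls with the largest change were E2f3 (-0.53 ± 0.11, adjusted p = 0.000459), an activating E2F factor, Ccne1 (-0.47 ± 0.14, adjusted p = 0.011), cyclin E1, Ccnd2 (-0.43 ± 0.07, adjusted p = 1.87e-05), cyclin D2, and Cdk2 (-0.42 ± 0.08, adjusted p = 7.98e-05), the kinase that pairs with cyclin E. Tfdp1, a partner with which several E2F factors bind DNA, was -0.40 ± 0.07, adjusted p = 2.67e-05. E2f8, a repressor of the family, was -0.36 ± 0.11, adjusted p = 0.0171. The genes that rose were Lin9 (0.42 ± 0.12, adjusted p = 0.0136), part of the complex that works with B-MYB or with pocket proteins, and Rbl2 (0.34 ± 0.12, adjusted p = 0.0356), the pocket protein p130. E2f1 was -0.18 ± 0.10, adjusted p = 0.256. Tfdp1, E2f8 and E2f1 are named outside the rule for named genes, and values of the other regulators are not given here.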
